A study of Homo sapiens with 15 samples.

Results

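The secreted factors described here are VEGFA, VEGFB, STC1, STC2, INHBE, GDF15, FGF21 and ADM, measured in the established human monocytic leukaemia line THP-1. They were followed through all non-control probe sets that the platform annotation gives to these genes alone, which are 16 of 54613 (4 for VEGFA, 3 each for STC1 and GDF15, 2 for STC2 and 1 for each of the others). The 8 genes (the series has 13607 genes with a tested probe set) were chosen by a proposal that had the measured differences of infliximab from untreated cells and from CDP870 in view, so these differences are described without a test. RNA was taken from untreated cells (0 h), from cells exposed to infliximab (IFX in the labels) for 6 or 24 h, and from cells exposed to CDP870 for 6 or 24 h. Each of the 5 groups held 3 Affymetrix arrays, 15 in all. Infliximab is a chimeric IgG1 antibody against tumour necrosis factor (TNF), and CDP870, the Fab' fragment known as certolizumab pegol, is PEGylated, binds TNF and lacks an Fc part. All cells were of the same line, no dose is given in the labels, and the only untreated arrays are those at 0 h, so a difference from 0 h holds the agent and the time in culture together. The 3 samples of a group are named biological replicates in the design text, but nothing says that they were separate cultures. The p-values below therefore reflect only how these samples varied, which may be technical.

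Cells that lack amino acids, load their endoplasmic reticulum with unfolded protein or run short of oxygen change the proteins they secrete. Phosphorylation of the initiation factor eIF2 alpha lowers general translation while it raises that of the transcription factor ATF4, which acts on C/EBP-ATF composite elements in its target genes, and hypoxia-inducible factors act on short elements with the core ACGTG or GCGTG. VEGFA, the angiogenic growth factor, is a known target of both systems. STC2 (stanniocalcin 2), INHBE (the inhibin beta E subunit of the activin family), GDF15 (a stress cytokine that acts through the brainstem receptor GFRAL) and FGF21 (a metabolic hormone) are known as stress-responsive, and ADM (adrenomedullin, a vasodilator peptide) as hypoxia-responsive. VEGFB and STC1 are the relatives of VEGFA and STC2 measured beside them.

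The stretches upstream of the start were in the RefSeq table (GRCh38.p14) for 5 of the 8 genes, namely STC2, ADM, VEGFB, GDF15 and FGF21. Those of STC2, GDF15 and ADM are shown because the means of STC2, ADM and 1 GDF15 probe set were higher with infliximab, and that of FGF21 because its probe set read nearly alike on all arrays. Each runs 5′ to 3′ along the gene's strand over the 250 bases before the start, and capitals mark matches to the letters searched.
STC2 (chr5:173328415-173328664, strand -): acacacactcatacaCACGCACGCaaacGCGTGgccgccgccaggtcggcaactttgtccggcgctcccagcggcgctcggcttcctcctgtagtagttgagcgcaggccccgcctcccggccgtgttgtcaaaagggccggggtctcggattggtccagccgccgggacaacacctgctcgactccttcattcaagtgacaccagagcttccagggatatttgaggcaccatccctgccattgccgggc
GDF15 (chr19:18385908-18386157, strand +): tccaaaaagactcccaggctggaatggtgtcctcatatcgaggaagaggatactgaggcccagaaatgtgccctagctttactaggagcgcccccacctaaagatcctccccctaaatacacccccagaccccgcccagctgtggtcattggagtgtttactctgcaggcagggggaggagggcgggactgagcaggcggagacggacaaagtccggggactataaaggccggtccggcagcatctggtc
ADM (chr11:10304823-10305072, strand +): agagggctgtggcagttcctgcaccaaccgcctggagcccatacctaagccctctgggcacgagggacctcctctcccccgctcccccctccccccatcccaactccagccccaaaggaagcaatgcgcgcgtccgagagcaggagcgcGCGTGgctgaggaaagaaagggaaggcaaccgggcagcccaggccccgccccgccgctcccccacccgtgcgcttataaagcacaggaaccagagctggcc
FGF21 (chr19:48755274-48755523, strand +): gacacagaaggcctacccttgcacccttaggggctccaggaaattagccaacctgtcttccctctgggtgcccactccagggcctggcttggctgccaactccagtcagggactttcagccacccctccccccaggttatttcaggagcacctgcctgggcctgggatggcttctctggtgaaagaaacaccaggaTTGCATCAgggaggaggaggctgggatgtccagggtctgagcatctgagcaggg
The letters searched on both strands were TGATGNAA (the core of a C/EBP-ATF composite element), ACGTG and GCGTG (hypoxia-inducible factor cores), and CCAAT followed after any 9 letters by CCACG (the endoplasmic reticulum stress element). FGF21 held TGATGNAA on the opposite strand, 54 to 47 bases before the start, and no other member's stretch did. STC2 held GCGTG 3 times, on the opposite strand at 235 to 231 and at 231 to 227 bases before the start, sharing a base, and on the gene's own strand at 222 to 218. ADM held GCGTG at 101 to 97 bases before the start and VEGFB at 61 to 57. GDF15 held none of these letters. Over the same window of 35116 promoters in the table, TGATGNAA was present in 3.14%, ACGTG in 18.5%, GCGTG in 32.2% and the last motif in 0.074%, so GCGTG is common. A match describes letters in a window and is no evidence of binding.

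Values are given on the deposited log2 scale, on which a difference of 1 is a 2-fold change. The zero of the scale is unknown, a value of one probe set cannot be set against that of another, and folds near the bottom of the scale are the least certain. A probe set was tested when it lay above its array's median (2.93 to 3.07) on at least 3 of the 15 arrays, which 12 of the 16 member probe sets did. The 3 of STC1 and 221576_at of GDF15 lay below the median on every array. INHBE 210587_at and STC2 203438_at passed only through infliximab, above the median on 6 of 6 infliximab arrays and 0 of the 9 others, and GDF15 221577_x_at lay above it on 6 of 6 and 2 of 9. These 3 had to differ in order to be tested, so no count over the tested members supports a statement about the set.

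The arrays differed in marker levels and in control probe sets, and the part of these in the member values was not tested. Each marker was read by its probe set of highest mean. Of 54613 non-control probe sets 28897 were above the array median on at least 3 arrays, so a marker above it says little. Of 11 monocytic markers 9 had a probe set of their own, and 8 of these were above the median on every array, while CD14 was not. Of the 7 epithelial markers 5 were above it on every array, CDH1 and CDH2 were not, and the mean level of the list was 5.50 to 5.67 at 0 h, 5.86 to 6.04 and 5.85 to 6.00 with infliximab at 6 and 24 h, and 5.13 to 5.34 and 5.21 to 5.28 with CDP870. The hybridisation spike-ins, RNAs added before hybridisation, stood at 7.75 ± 0.04 (SD, n = 3) with infliximab at 6 h and 7.38 ± 0.13 at 0 h. Infliximab 24 h replicate 6 had 3′ control probe sets of GAPDH and ACTB above the 5′ ones by 0.24 and 0.27 on the log2 scale, while the other 14 arrays lay between -0.14 and 0.03. The part of the epithelial markers in the results below was not tested. In RNA of whole cultures, fewer cells of a type and less RNA per cell cannot be told apart.

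**Figure D1:**
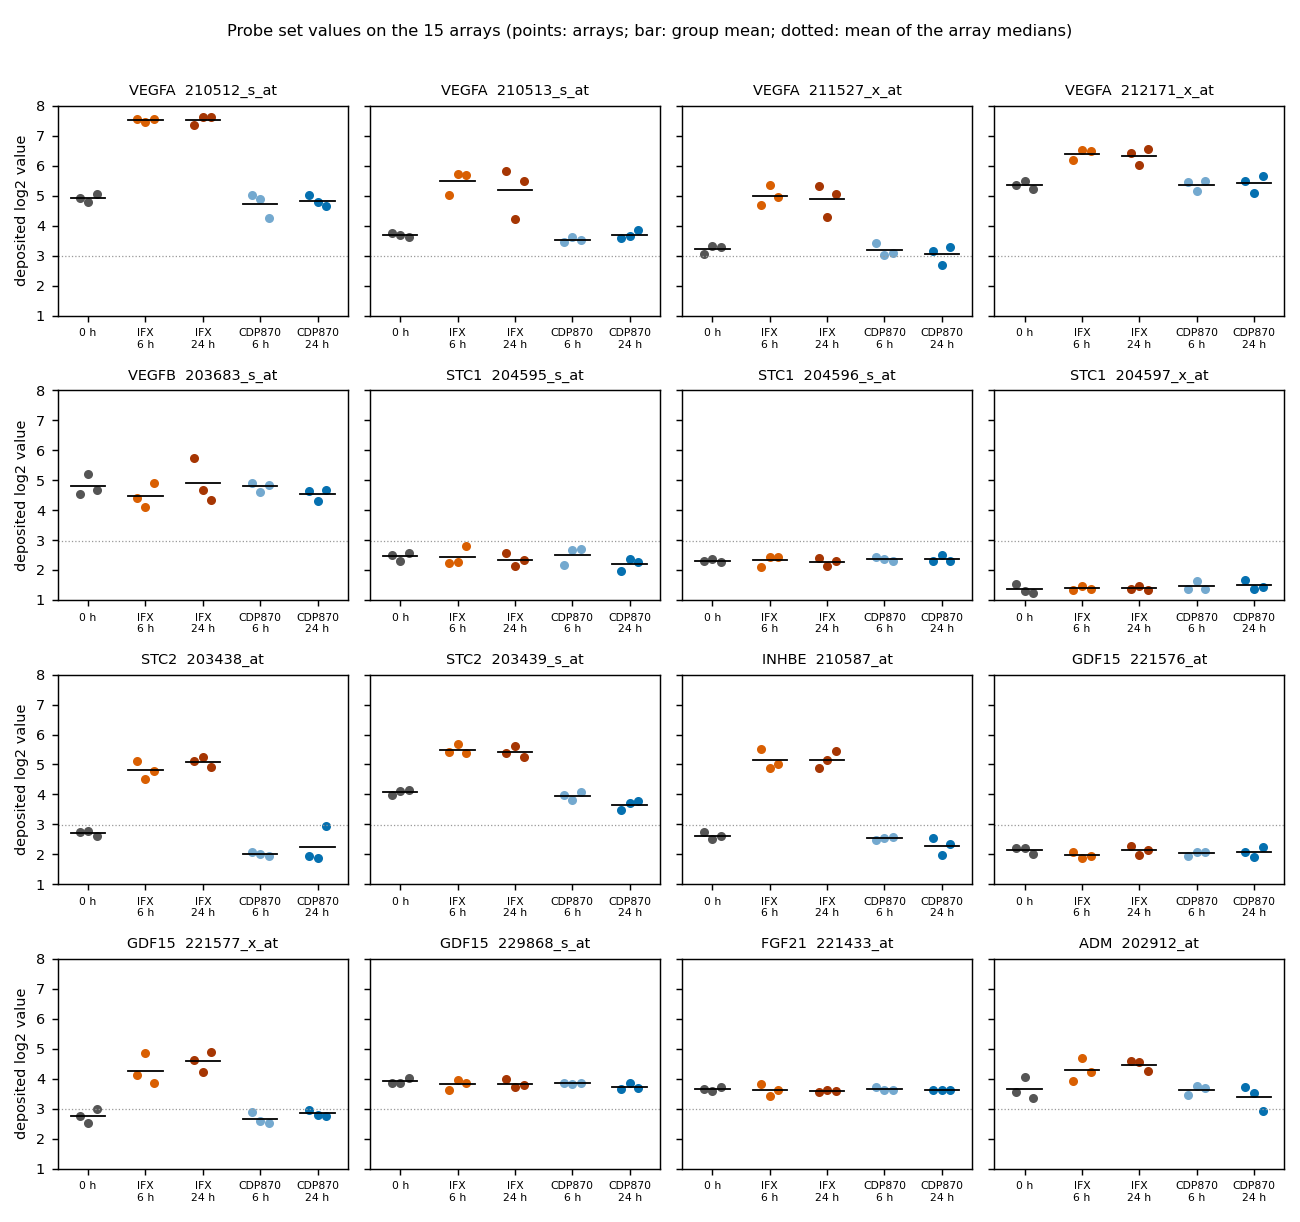
Deposited log2 values (vertical axis) of the 16 probe sets on the 15 arrays, by group; points are arrays, bars group means, and the dotted line the mean of the array medians. VEGFA, STC2, INHBE and GDF15 221577_x_at stand higher on all 6 infliximab arrays than on all 9 others, whereas VEGFB, STC1, FGF21, ADM and the other GDF15 probe sets do not.

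VEGFA was higher on every infliximab array by each of its 4 probe sets, but the size depended on the probe set. On 210512_s_at the untreated arrays (replicates 2, 3 and 4) read 4.93, 4.78 and 5.06, the infliximab arrays 7.55, 7.48 and 7.55 at 6 h (replicates 8, 9 and 10) and 7.37, 7.63 and 7.64 at 24 h (replicates 5, 6 and 7). The CDP870 arrays read 5.04, 4.90 and 4.27 at 6 h (replicates 14, 15 and 16) and 5.02, 4.78 and 4.65 at 24 h (replicates 11, 12 and 13). The lowest infliximab array thus stood 2.31 above the highest of the 9 others, and the infliximab groups overlapped each other. The difference from 0 h was 2.60 ± 0.17 (SE, n = 3 and 3), or 6.08-fold, at 6 h and 2.62 ± 0.17, or 6.16-fold, at 24 h.

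The other VEGFA probe sets gave smaller differences. On 210513_s_at the untreated arrays read 3.77, 3.69 and 3.63, those with infliximab 5.03, 5.74 and 5.68 at 6 h and 5.82, 4.22 and 5.51 at 24 h, and the 6 CDP870 arrays lay between 3.46 and 3.86. On 211527_x_at the corresponding values were 3.07, 3.31 and 3.30 at 0 h, 4.71, 5.37 and 4.95 at 6 h and 5.34, 4.29 and 5.06 at 24 h, against 2.69 to 3.44 with CDP870. On 212171_x_at they were 5.35, 5.51 and 5.23, then 6.18, 6.53 and 6.49, then 6.43, 6.03 and 6.57, against 5.10 to 5.66 with CDP870. No infliximab array overlapped the other 9 on any of these probe sets, with a gap of 0.36, 0.85 and 0.37 respectively. The differences from 0 h were 1.79 ± 0.30 (3.45-fold), 1.78 ± 0.24 (3.44-fold) and 1.04 ± 0.17 (2.05-fold) at 6 h, and 2.80-fold, 3.18-fold and 1.97-fold at 24 h. What part of the VEGFA transcripts each probe set measures is not given in the sources used here, and the 4 are not independent measurements of the cells.

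At 24 h of infliximab these 3 probe sets were all lowest on replicate 6, the array with the raised 3′ signal, whereas 210512_s_at read 7.63 there, between the 2 other arrays. Above the mean of 0 h replicate 6 stood by 0.52, 1.06 and 0.67 on 210513_s_at, 211527_x_at and 212171_x_at, and by 2.71 on 210512_s_at. Without replicate 6 the difference from 0 h at 24 h was 1.97 for 210513_s_at, 1.97 for 211527_x_at and 1.14 for 212171_x_at, compared with 1.49, 1.67 and 0.98 with it. Replicate 8 at 6 h was the lowest of its group on the same 3 probe sets, with GAPDH and ACTB end differences of -0.01 and 0.01, the highest of that group. GDF15 221577_x_at, described below, was also lowest on replicate 6 within its 24 h group. At 6 h it was lowest on replicate 10 (3.86), the array with end differences of -0.13 and -0.11. Both STC2 probe sets were highest of the 24 h group on replicate 6 (5.26 and 5.63). On replicate 8 STC2 203438_at (5.12) and INHBE (5.50) were highest of the 6 h group, and ADM (3.92) was lowest. The part of the 3′ signal in these values was not tested.

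**Figure D2:**
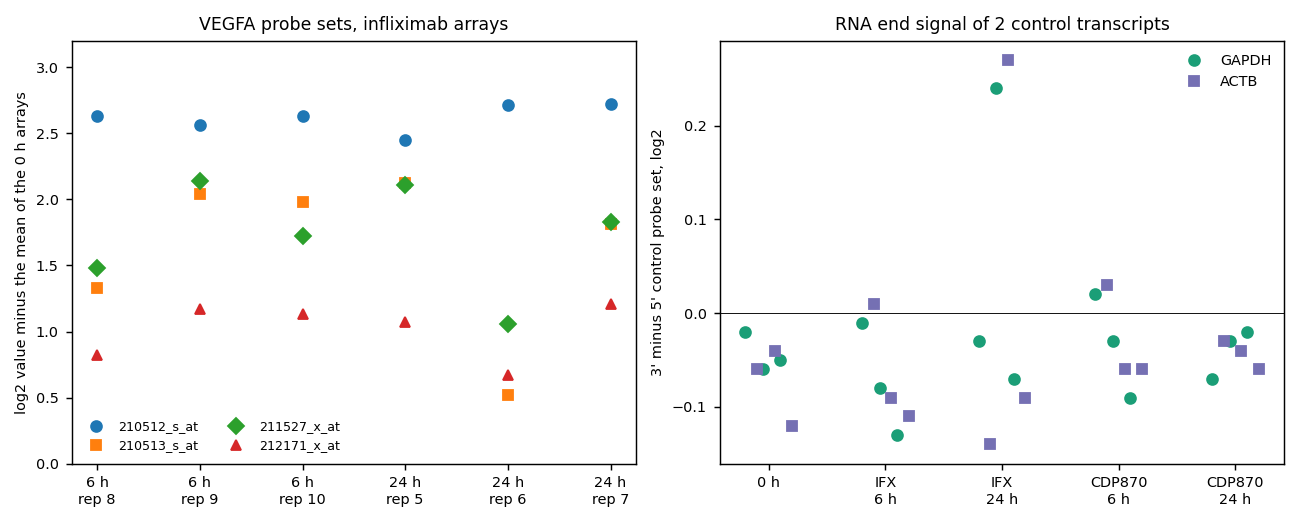
Left, log2 value minus the mean of the 0 h arrays (vertical axis) for the 4 VEGFA probe sets on each infliximab array; right, log2 difference between 3′ and 5′ control probe sets of GAPDH and ACTB on all 15 arrays by group. On 24 h replicate 6 the probe set 210512_s_at stands at 2.71 and 210513_s_at at 0.52, and that array's control differences are 0.24 and 0.27.

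VEGFB, which binds the receptor FLT1, gave no such pattern. Its probe set 203683_s_at read 4.55, 5.22 and 4.68 at 0 h, 4.41, 4.11 and 4.91 at 6 h and 5.74, 4.67 and 4.33 at 24 h of infliximab, and 4.32 to 4.92 with CDP870. The groups overlapped throughout, and replicate 5 at 24 h was the highest of all arrays. The difference from 0 h was -0.34 ± 0.29 at 6 h and 0.10 ± 0.29 at 24 h.

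STC2, a secreted glycoprotein, was higher on all 6 infliximab arrays by both probe sets. On 203438_at the untreated arrays read 2.76, 2.79 and 2.62, the infliximab arrays 5.12, 4.51 and 4.78 at 6 h and 5.12, 5.26 and 4.90 at 24 h. With CDP870 it read 2.07, 2.01 and 1.95 at 6 h and 1.95, 1.87 and 2.95 at 24 h, so that all CDP870 arrays but replicate 13 at 24 h were below the untreated ones. On 203439_s_at, which was above the median everywhere, the values were 3.97, 4.10 and 4.15 at 0 h, 5.42, 5.67 and 5.37 at 6 h and 5.37, 5.63 and 5.24 at 24 h. Its CDP870 values were 3.97, 3.82 and 4.09 at 6 h and 3.48, 3.70 and 3.78 at 24 h. The differences from 0 h were 2.08 ± 0.22 (4.23-fold) and 1.41 ± 0.12 (2.66-fold) at 6 h and 5.17-fold and 2.53-fold at 24 h for 203438_at and 203439_s_at. In the order of the group means both infliximab groups came first and overlapped each other, followed by 0 h and the CDP870 groups. Among these lower groups, 203438_at overlapped between 0 h and CDP870 24 h through replicate 13 alone.

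The 3 probe sets of STC1, the paralogue of STC2, stayed low. They ranged from 1.98 to 2.79 (204595_s_at), 2.09 to 2.50 (204596_s_at) and 1.24 to 1.66 (204597_x_at) over the 15 arrays, all below the array medians, and infliximab arrays overlapped the others on each. Differences from 0 h with infliximab lay between -0.12 and 0.03. A fall from values below the array median can hardly be measured. INHBE and STC2 203438_at, also below the median at 0 h, were higher with infliximab, and no difference of that size was seen for STC1. Whether the STC1 probe sets would follow a rise was not tested.

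INHBE was among the members with the largest differences. Its probe set 210587_at read 2.75, 2.50 and 2.60 at 0 h, 5.50, 4.87 and 5.03 at 6 h and 4.87, 5.15 and 5.46 at 24 h of infliximab. The CDP870 arrays read 2.49, 2.53 and 2.57 at 6 h and 2.53, 1.97 and 2.34 at 24 h. The lowest infliximab array was 2.12 above the highest other array, and 0 h and CDP870 overlapped. The difference from 0 h was 2.52 ± 0.18 (5.72-fold) at 6 h and 2.54 ± 0.18 (5.83-fold) at 24 h. Because 0 h lies below the array median, the size of this fold is uncertain.

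The GDF15 probe sets disagreed. On 221577_x_at the untreated arrays read 2.74, 2.52 and 2.98, and infliximab gave 4.11, 4.85 and 3.86 at 6 h and 4.62, 4.22 and 4.90 at 24 h, against 2.52 to 2.97 with CDP870. This is 1.53 ± 0.22 (2.88-fold) above 0 h at 6 h and 1.83 ± 0.22 (3.56-fold) at 24 h, with no overlap, and 2.01 at 24 h without replicate 6. On 229868_s_at all 15 arrays lay between 3.63 and 4.03, with a difference from 0 h of -0.11 ± 0.10 at 6 h and -0.10 ± 0.10 at 24 h. The third, 221576_at, lay between 1.89 and 2.27 and was not tested. A statement on GDF15 therefore rests on 1 of its 3 probe sets, and which of them follows the transcript was not tested.

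FGF21 stayed within a narrow range on all arrays, and ADM differed from 0 h by less than VEGFA, STC2 and INHBE did. FGF21 221433_at, whose upstream stretch holds the TGATGNAA letters shown above, read 3.42 to 3.82 on the infliximab arrays and 3.59 to 3.73 on the 9 others, and its difference from 0 h was -0.03 ± 0.10 at 6 h and -0.07 ± 0.10 at 24 h. ADM 202912_at read 3.57, 4.05 and 3.37 at 0 h, 3.92, 4.69 and 4.22 at 6 h and 4.60, 4.57 and 4.25 at 24 h of infliximab. With CDP870 it read 3.44, 3.76 and 3.68 at 6 h and 3.71, 3.51 and 2.92 at 24 h. ADM at 6 h of infliximab overlapped 0 h, at 24 h it did not, and the differences were 0.61 ± 0.23 (1.53-fold) and 0.81 ± 0.23 (1.75-fold). The order of group means was infliximab 24 h, infliximab 6 h, 0 h, CDP870 6 h and CDP870 24 h, with overlap between each neighbouring pair.

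**Figure D3:**
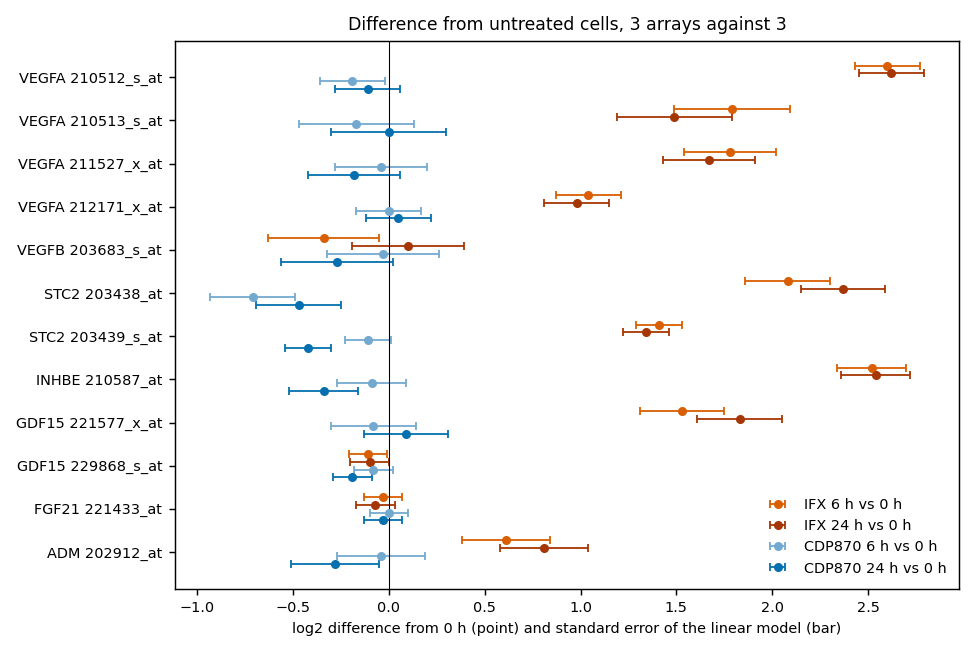
Log2 difference from 0 h (horizontal axis) with the standard error of the linear model for the 12 tested probe sets, by agent and time, 3 arrays against 3. Infliximab differences run from 0.61 for ADM to 2.62 for VEGFA 210512_s_at in 5 genes, while those of CDP870 lie between -0.71 and 0.09.

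Counted over the series-wide fit, 8 of the 12 tested members were higher than 0 h with infliximab at 6 h and none lower, where 4.02% of all tested probe sets were called higher, 4.4% lower and 8.42% in either direction (limma, Benjamini-Hochberg adjusted p under 0.05). At 24 h 9 were higher, ADM being added, where 3.78% of all were higher, 2.79% lower and 6.57% either. The contrast with 0 h chose the set, so nothing is read from these counts. The spike-in level differed between the groups, at 7.23 to 7.46 at 0 h and 7.71 to 7.78 with infliximab at 6 h. With it as a covariate 5 of the 8 calls at 6 h were kept. They were those of VEGFA 210512_s_at and 211527_x_at, both STC2 probe sets and INHBE. The 3 that were lost had differences of 2.04 (VEGFA 210513_s_at), 1.06 (VEGFA 212171_x_at) and 1.44 (GDF15 221577_x_at) in that fit. Calls over all tested probe sets also became far fewer in it, and at 24 h with only the arrays compared. Calls lost under these settings, here and in the gene lists below, therefore do not single out these genes. ADM at 24 h lost its call under 13 of 23 alternative settings, with differences of 0.66 to 0.81 in those. They include leaving out untreated replicate 2 or 4, infliximab 24 h replicate 5 or 6, infliximab 6 h replicate 10, CDP870 24 h replicate 12 or any CDP870 6 h replicate.

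Infliximab and CDP870 were compared at the same time, which takes culture time out of the difference. At 6 h the infliximab arrays were above the CDP870 arrays 6.92-fold for VEGFA 210512_s_at, 6.93-fold and 2.88-fold for the STC2 probe sets 203438_at and 203439_s_at, 6.08-fold for INHBE and 3.05-fold for GDF15 221577_x_at. At 24 h the same differences were 6.63-fold, 7.14-fold, 3.39-fold, 7.36-fold and 3.34-fold. The other VEGFA probe sets 210513_s_at, 211527_x_at and 212171_x_at stood 3.87-fold, 3.53-fold and 2.05-fold above CDP870 at 6 h and 2.80-fold, 3.61-fold and 1.90-fold at 24 h. ADM differed by 0.65 ± 0.23 at 6 h and 1.09 ± 0.23 at 24 h, the latter 2.13-fold. It was not called at 6 h, and its call at 24 h was lost with only the arrays compared. Its infliximab and CDP870 arrays did not overlap at either time, but the share of all probe sets that separate 3 against 3 was not counted. VEGFB differed by -0.31 ± 0.29 and 0.37 ± 0.29, and FGF21 by -0.03 ± 0.10 and -0.04 ± 0.10. These comparisons use the infliximab arrays by which the set was proposed, so they too are given without a test. The calls numbered 8 of 12 at 6 h and 9 of 12 at 24 h, all higher with infliximab, where 5.1% and 4.73% of all tested probe sets were called higher, 3.98% and 1.79% lower and 9.07% and 6.51% in either direction. On the arrays of both times together, 8 of the 16 probe sets, of 4 genes, had all 6 infliximab values above all 9 others. All 8 were among the 12 tested. Of all tested probe sets 3.99% did so, while 2.78% had all 6 below. INHBE and STC2 203438_at were tested only because they were high with infliximab, so nothing is read from this count. The smallest gap between infliximab and other arrays among the 8 was 0.36 (VEGFA 210513_s_at). Just outside, ADM was kept from this group by untreated replicate 3 at 4.05 and infliximab 6 h replicate 8 at 3.92.

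With CDP870 no member passed the threshold against untreated cells. Its differences from 0 h follow from the infliximab differences from 0 h and from CDP870, which were in view when the set was chosen. They also share the untreated arrays with the infliximab differences and with each other. The tests and intervals below are therefore a description and no independent support. Of the 12 tested members 0 passed against 0 h at 6 h and 0 at 24 h (limma, smallest adjusted p = 0.799 and 0.974), where 0% of all tested probe sets were called (1352 and 1359 of 28897 at an unadjusted p under 0.05). At an unadjusted p under 0.05 there was 1 member at each time, the STC2 probe sets 203438_at at 6 h and 203439_s_at at 24 h, both lower. With trend and robust moderation of the variance the counts were also 0. For VEGFA 210512_s_at the difference was -0.19 (95% interval -0.54 to 0.17) at 6 h and -0.11 (-0.46 to 0.25) at 24 h. Both intervals lie below the differences seen with infliximab. For INHBE it was -0.09 (-0.47 to 0.29) and -0.34 (-0.72 to 0.04), for GDF15 221577_x_at -0.08 (-0.56 to 0.39) and 0.09 (-0.38 to 0.57), and for ADM -0.04 (-0.52 to 0.45) and -0.28 (-0.77 to 0.20). STC2 203438_at lay at -0.71 (-1.19 to -0.23) at 6 h and -0.47 (-0.95 to 0.01) at 24 h, and 203439_s_at at -0.11 (-0.38 to 0.15) and -0.42 (-0.69 to -0.15). The STC2 group means were lower than untreated on both probe sets at both times, without passing the adjusted threshold. On 203438_at at 24 h and on 203439_s_at at 6 h the interval includes 0 and CDP870 arrays overlapped untreated ones. STC2 203438_at lay below the array median in both groups, where a difference is least certain. CDP870 arrays lay entirely below untreated arrays on VEGFA 210513_s_at (-0.17) and STC2 203438_at at 6 h, and on STC2 203439_s_at and GDF15 229868_s_at (-0.19) at 24 h. The share of all tested probe sets that separate in this way was not counted, so no decrease is read from these separations.

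Between 6 and 24 h no member passed in either agent. The 3 kinds of difference given here follow from differences that were in view when the set was chosen. INHBE and STC2 203438_at were also tested only because they were high with infliximab. The tests below are therefore a description and no independent support. With infliximab 0 of 12 passed (limma, smallest adjusted p = 0.583, 0 at an unadjusted p under 0.05), and the median difference was 0.02 beside 0.01 for all tested probe sets. The difference of 24 h from 6 h was 0.02 (95% interval -0.33 to 0.37) for VEGFA 210512_s_at, 0.03 (-0.35 to 0.41) for INHBE, 0.29 (-0.19 to 0.77) for STC2 203438_at, -0.07 (-0.34 to 0.19) for STC2 203439_s_at, 0.31 (-0.17 to 0.78) for GDF15 221577_x_at and 0.20 (-0.29 to 0.68) for ADM. VEGFB had the largest difference, 0.44 (-0.19 to 1.07). VEGFA 210513_s_at stood at -0.30, and at 0.18 without infliximab 24 h replicate 6. With CDP870 0 of 12 passed (smallest adjusted p = 0.996), and STC2 203439_s_at at -0.31 (-0.57 to -0.04) was the 1 member with an unadjusted p under 0.05. The test of an unequal change over time between the agents gave 0 of 12 (smallest adjusted p = 0.627 and 0 at an unadjusted p under 0.05). In all 3 of these comparisons 0% of tested probe sets were called, with 3437, 1437 and 2642 at an unadjusted p under 0.05.

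**Figure D4:**
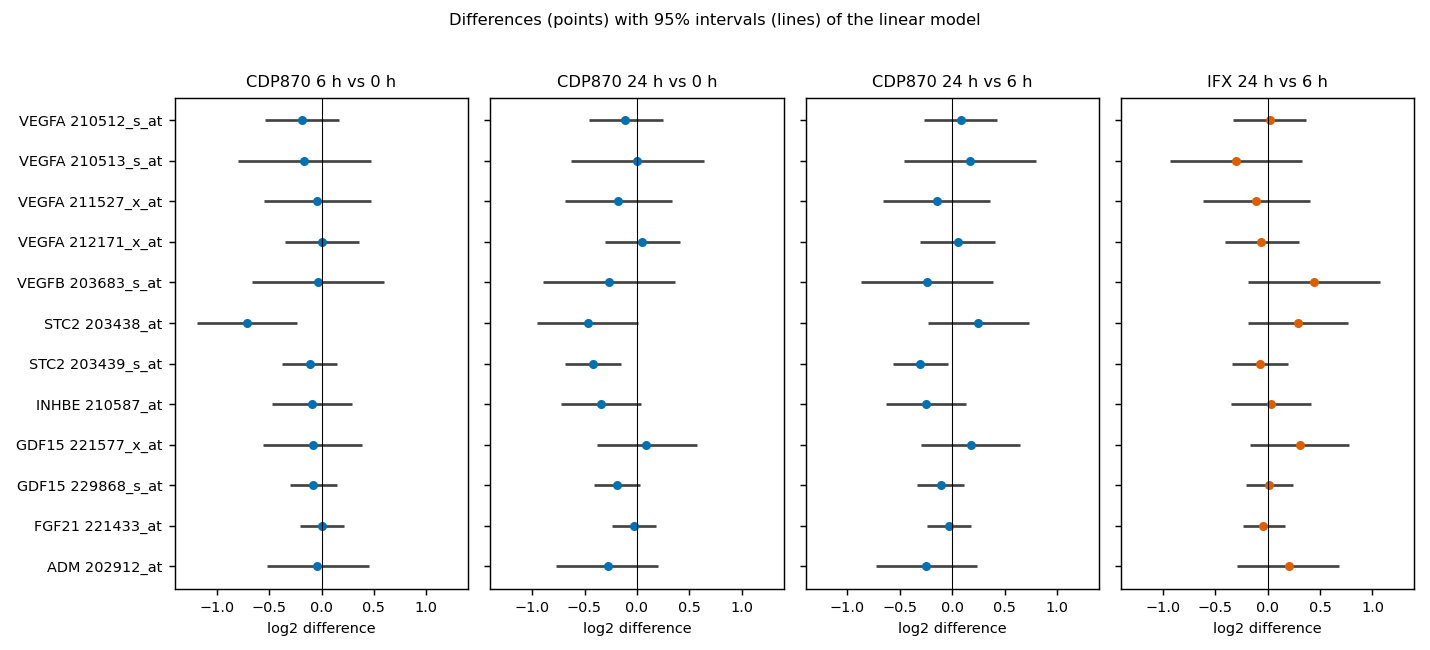
Log2 differences (points) with 95% intervals (lines) of the linear model for the 12 tested probe sets, for CDP870 against 0 h at 6 and 24 h and for 24 h against 6 h of each agent. All adjusted p-values are above the threshold, and STC2 203438_at at 6 h of CDP870 stands lowest at -0.71 (-1.19 to -0.23).

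The receptors and relatives of these factors, from lists chosen with earlier results of these data known, had medians near those of all probe sets. Of 22 receptor genes 15 were tested, and with infliximab 1 was called higher and none lower at 6 h and 2 higher at 24 h, where 4.02% and 3.78% of all tested probe sets were called higher, so that these counts are no result about receptors. They were ACVR2B, an activin type II receptor (0.58 ± 0.13 at 6 h, limma adjusted p = 0.0146, and 0.55 at 24 h), and at 24 h the activin type I receptor gene ACVR1B (0.44). The list median was 0.04 at 24 h beside -0.02 for all probe sets. The count at 6 h was 0 without untreated replicate 3 or infliximab 6 h replicate 8 and with the spike-in level as a covariate. At 24 h it was 0 without untreated replicate 3, without that array and infliximab 24 h replicates 5 and 6 together and with only the arrays compared, and 1 with the covariate, with array weights and without untreated replicate 4 or infliximab 24 h replicate 5 or 6. ACVR2B against CDP870 did not pass at either time (0.38 and 0.29, adjusted p = 0.0889 and 0.241). FLT1, a VEGF receptor, lay at -0.17 and -0.34 and the co-receptor NRP1 at -0.15 and 0.04, none past the threshold.

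Of 20 related ligands and inhibitors 15 were tested, and with infliximab 1 was called higher and 2 lower at 6 h. At 24 h 2 were called higher and none lower. Of all tested probe sets 4.02% and 3.78% were called higher and 4.4% and 2.79% lower at these times. PDGFA, a platelet-derived growth factor chain, rose by 1.03 ± 0.17 (2.04-fold, limma adjusted p = 0.00205) at 6 h and by 0.79 ± 0.17 at 24 h of infliximab, and stood 0.90 and 0.94 above CDP870. With the spike-in covariate no gene of the list was called higher at 6 h, so this call was lost. FST (follistatin, an inhibitor of activins) fell by 0.52 ± 0.14 and BMP2 (bone morphogenetic protein 2) fell by 0.67 ± 0.18 at 6 h (adjusted p = 0.035 and 0.0324), and neither passed at 24 h (-0.43 and -0.46). Against CDP870 at 6 h neither passed, FST at -0.22 (adjusted p = 0.366) and BMP2 at -0.48 (adjusted p = 0.11). These 2 decreases were both lost with the spike-in covariate, without untreated replicate 2 or 3 or without any 1 infliximab 6 h array, and 1 was left without untreated replicate 4. At 24 h 2 genes of the list rose, and the count was 1 without untreated replicate 2 or infliximab 24 h replicate 5 and 4 without untreated replicate 3. It was 0 without the 3 arrays together and 1 with only the arrays compared. The single rise at 6 h became 2 without untreated replicate 3 or infliximab 24 h replicate 5 or with only the arrays compared, 4 without the 3 arrays and 5 with array weights. The list median was -0.07 at both times. INHBA, INHBB and INHBC, the other activin subunit genes of the list, did not pass at either time.

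Genes known as ATF4 targets, other than the members, also rose with infliximab. Of 22 genes, all tested, 19 rose and none fell at 6 h, where 4.02% of all tested probe sets were called higher. At 24 h 19 rose, where 3.78% of all were called higher. The list medians were 1.43 and 1.44, beside -0.04 for all probe sets at 6 h. The list was chosen with earlier results of these data known, so these counts are a description. ASNS (asparagine synthetase), ALDH1L2 (a mitochondrial folate enzyme), CTH (cystathionine gamma-lyase) and DDIT4 (an inhibitor of mTORC1 signalling) had the largest changes at 6 h, and against CDP870 at 6 h they stood 10.4-fold, 7.89-fold, 8.96-fold and 6.84-fold higher (limma adjusted p = 2.01e-10, 5.64e-07, 8.46e-07 and 6.15e-10). These genes were named for their size on the same infliximab arrays, so their p-values are no independent support. ATF3 (0.07 and 0.01) and NUPR1 (0.28 and 0.46) did not pass at either time, nor did PPP1R15A (0.02 and 0.74), the regulatory subunit of an eIF2 alpha phosphatase. With CDP870 0 of 22 passed at 6 or 24 h, where 0% of all tested probe sets were called. The list medians were -0.01 and 0.02.

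Of 18 tested hypoxia targets 6 rose at 6 h and 12 at 24 h of infliximab and none fell, where 4.02% and 3.78% of all tested probe sets were called higher. The list medians were 0.34 and 0.57. The glucose transporter gene SLC2A3 rose by 1.20 and 1.71, ANKRD37 by 1.01 and 1.15, the mitophagy receptor gene BNIP3L by 0.92 and 0.75 and PDK1, a pyruvate dehydrogenase kinase, by 0.84 and 0.95. EGLN3 (-0.19 and -0.30) and ANGPTL4 (0.13 and 0.05) did not pass. The count at 24 h was 7 without untreated replicate 3 and 3 without that array and infliximab 24 h replicates 5 and 6, and 4 with only the arrays compared. At 6 h it was 2 with the spike-in level as a covariate. The difference between the 2 times was tested for single genes only, and 0 of 18 passed (SLC2A3 0.51 ± 0.16, adjusted p = 0.3).

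Of 12 targets of the ATF6 and XBP1 arms of the unfolded protein response 1 rose and 5 fell at 6 h of infliximab. Of all tested probe sets 4.02% were called higher and 4.4% lower there. At 24 h 2 rose and 4 fell, where 3.78% of all were higher and 2.79% lower. The list medians were -0.14 and -0.29. SDF2L1, part of a chaperone complex, fell by 0.94 and 0.92, CRELD2 fell by 0.86 and 0.76 and MANF, a secreted stress protein, fell by 0.80 and 0.83. HERPUD1, a component of endoplasmic reticulum-associated degradation that ATF4 also controls, rose by 0.89 and 0.81. HSPA5, the chaperone BiP, lay at -0.21 and -0.34 and did not pass. The count of 2 that rose at 24 h was 1 under 11 of the 15 single-array omissions, EDEM1 (0.46) being the smaller change. The 5 that fell at 6 h were 2 with the spike-in level as a covariate, and the 4 at 24 h were 2 with only the arrays compared, each beside 1 that rose. Of 11 tested p53 targets 3 rose at each time and none fell, where 4.02% and 3.78% of all tested probe sets were called higher. They were TP53INP1 (1.16 and 1.39), the death receptor gene TNFRSF10B (0.46 and 0.52) and GADD45A (0.35 and 0.41). At 6 h this count was 1 without untreated replicate 2 or 4, infliximab 6 h replicate 8 or CDP870 24 h replicate 11, and at 24 h it was 1 without untreated replicate 4 or infliximab 24 h replicate 6. At 6 h it was 0 with the spike-in covariate, 1 with only the arrays compared and 6 with array weights. At 24 h it was 0 without the 3 arrays, 1 with only the arrays compared and 2 with the covariate or array weights.

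**Figure D5:**
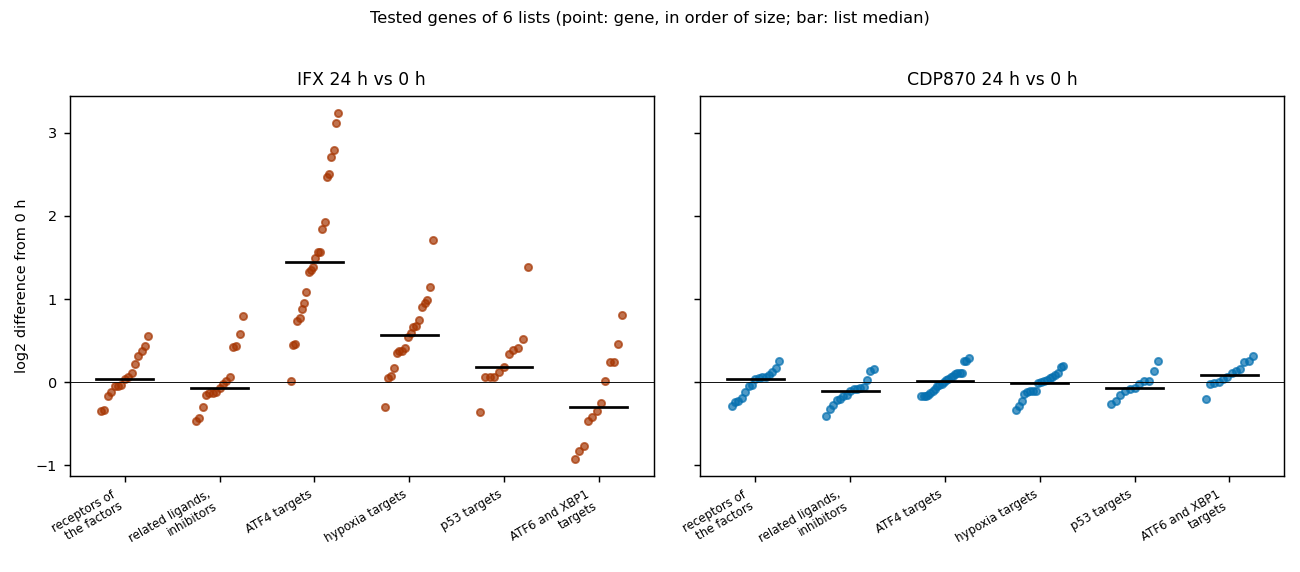
Log2 difference from 0 h (vertical axis) of the tested genes of 6 lists with infliximab (left) and CDP870 (right) at 24 h; points are genes in order of size and bars list medians. The ATF4 targets have a median of 1.44 with infliximab and 0.02 with CDP870, and the targets of ATF6 and XBP1 a median of -0.29 with infliximab.

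The genes whose values followed these factors most closely were taken by Pearson's r over the 15 arrays, among tested probe sets with 1 gene symbol. For VEGFA 210512_s_at they were JDP2 (r = 0.994), TUBA1A (0.991), CTH (0.990), ASNS (0.989) and FYN (0.989). For STC2 203439_s_at they were CARS1 (0.983), DHRS3 (0.980), CEBPB (0.977), DDIT4 and TRIB3 (0.973 each), and for INHBE SHMT2 (0.988), TUBA1A (0.987), ASNS (0.987), APOL6 (0.986) and S100P (0.986). The points share arrays and fall into infliximab and other arrays. At an r over 0.9 with VEGFA, STC2 and INHBE were 450, 354 and 402 of the 28897 probe sets. It is a description with no test. The sizes differed within this company, JDP2 being 1.56 and TUBA1A 0.96 above 0 h at 6 h of infliximab, compared with 2.60 for VEGFA.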

How the data were processed

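RNA of 15 THP-1 samples was labelled as biotinylated cRNA and hybridised to Affymetrix arrays with 54675 probe sets. The values are log2 probe set summaries deposited by the authors. GCRMA and GCOS 1.3.0 appear in the submitters' processing notes, with no role or order. How arrays were normalized against each other, and with which background settings and filters, is not given in the sources consulted. Groups came from the sample titles, and all 15 columns matched a sample.

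Probe sets were named through the platform annotation, with symbols updated by Entrez number through RefSeq (GRCh38.p14). Of 54613 non-control probe sets 28897 passed the filter on low values (above the array's 50th percentile on at least 3 arrays). limma 3.58.1 in R 4.3.3 was fitted to all arrays with 1 mean per group, with Benjamini-Hochberg adjustment over all tested probe sets in each of 9 comparisons, two-sided. The fit was checked on simulated data. Each gene of a list is represented by the probe set of highest mean among those tested. All probe sets of the members are named. Of each list, called genes with the largest change at 6 h of infliximab are named (up to 4), and others given beside them (ACVR1B, FLT1, NRP1, INHBA, INHBB, INHBC, ATF3, NUPR1, PPP1R15A, EGLN3, ANGPTL4, HSPA5, EDEM1) were chosen after their values were seen. The members and lists were chosen with earlier results of these data known. Alternatives were the filter, normalization, array weights, a spike-in covariate, moderation, the arrays compared alone, and arrays left out. Those for the gene lists were added after seeing the data. Figures were drawn with matplotlib 3.10.9. The number of arrays limits the precision.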

Additional observations from a re-analysis of the deposited data

How the results depend on the processing

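Over 108 values (12 tested probe sets in 9 comparisons) and 23 alternative settings each, no called value reversed, 21 calls were lost, 13 of them of ADM at 24 h of infliximab, and 4 were gained, all of ADM. Values that never passed changed sign 123 times. The count of members called with infliximab at 6 h against 0 h moved from 8 to 5 with the spike-in level as a covariate, and the cause was not tested. Calls over all tested probe sets also became far fewer in that fit. The other counts stayed within 1.5 times of those given: 7 to 9 at 24 h against 0 h, and against CDP870 8 to 9 at 6 h and 6 to 9 at 24 h, the 6 being with only the arrays compared, a fit of fewer samples. Leaving out 1 array gave 8 at 6 h and 8 to 9 at 24 h against 0 h, and 8 and 9 against CDP870. The 5 comparisons without a call gave 0 under every setting, with a smallest adjusted p of 0.0658 (STC2 203439_s_at between the times of CDP870, with array weights). Leaving out 3 arrays together (untreated replicate 3 and infliximab 24 h replicates 5 and 6) left 1 array in the infliximab 24 h group, which was assumed to vary like the others. The list of ATF4 targets kept 15 to 19 increases at 6 h and 17 to 20 at 24 h over all settings, and that of hypoxia targets 2 to 8 and 3 to 12. No paired analysis was possible because replicate numbers are never shared by 2 groups. Values near or below the array median, as those of INHBE and STC2 203438_at without infliximab, limit the certainty of folds.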

Other observations

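Markers of further cell types, looked up as a check of the line, gave values that belong to no comparison above. Each was read by its probe set of highest mean, and 28897 of 54613 probe sets were above the array median on at least 3 arrays. The share of all genes that pass in this way was not counted, so nothing is read from the counts. The T cell list also lay close to the array medians (2.93 to 3.07). In untreated cells 3 of 4 T cell markers with a probe set of their own were above the array median on every array (CD3G was not), as were 3 of 4 B cell markers (MS4A1 was not), 1 of 5 endothelial markers and 1 of 5 fibroblast markers. The mean level of these lists at 0 h was 3.23 to 3.40, 3.90 to 4.20, 2.50 to 2.79 and 2.67 to 2.96, and with infliximab at 24 h 3.10 to 3.38, 3.80 to 3.91, 2.58 to 2.69 and 2.66 to 2.69. The monocytic list stood at 5.98 to 6.36 at 0 h, 6.30 to 6.71 with infliximab at 24 h and 6.07 to 6.10 with CDP870 at 24 h.

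BMP4, a bone morphogenetic protein of the list of related ligands, rose by 0.58 at 24 h of infliximab and was not called at 6 h (0.36). It stood 0.71 and 0.84 above CDP870 at 6 and 24 h, where CDP870 lay at -0.35 and -0.27 from 0 h. FGF19, the endocrine relative of FGF21, lay 0.60 and 0.74 above CDP870 at these times while FGF21 lay at -0.03 and -0.04. From 0 h FGF19 lay at 0.31 and 0.42 with infliximab, not called at either time, and at -0.29 and -0.32 with CDP870. Both were singled out after their values were seen.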
